A study of Mus musculus with 4 samples.

Results

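The thick ascending limb of the loop of Henle carries Slc12a1, the sodium, potassium and chloride cotransporter NKCC2 that takes up salt from the tubule fluid. In the library labelled 0 h, 55 of 192 barcodes held 2 or more Slc12a1 counts, and these Slc12a1-rich barcodes, selected on their Slc12a1 counts, are described here. A further 17 barcodes held exactly 1 count and 120 held none. The whole series has 3298 barcodes. Since Slc12a1 chose the Slc12a1-rich barcodes, it was left out of every CPM level and ratio between sides, and its own values are given only as a description.

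The libraries were made by Drop-seq, which captures single cells in droplets with barcoded beads, from primary cultures of Gli1+ kidney cells. The mice were male and 12 weeks old. In the kidney, Gli1 is a marker of perivascular mesenchyme. Per the labels, cells spent 2 h in serum-free medium; the control, labelled 0 h, then received no TGF-β, and the other cultures received 1 ng/ml TGF-β for 6, 12 or 24 h. Each time point had 1 library, so nothing below has a replicate check. No test was made, and barcodes of 1 library are not replicates.

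Transcripts in the 0 h library did not match the labelled mesenchymal cells. Of 13 mesenchymal marker genes 11 were measured, and they summed to 5 counts in that library, or 46.8 CPM (15.2 to 109), where CPM is a sum divided by all counts and scaled to a common total. In the treated libraries they stood at 7686, 12669 and 14085 CPM in order of time. Col1a1, Col3a1, Acta2 and Fn1 had no count at 0 h. The library was also shallow, with 106826 counts against 778793, 5687966 and 6166324 in the treated libraries. None of its barcode sequences recurred in another library.

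A nephron works in segments, and each has its own transporters. The proximal tubule reclaims phosphate, glucose, amino acids and filtered protein, and secretes organic acids. The thick ascending limb moves salt with Slc12a1, returns potassium through Kcnj1, and secretes uromodulin (Umod). The distal convoluted tubule, further on, uses the related transporter Slc12a3. The questions put to the Slc12a1-rich barcodes were whether other loop genes accompanied Slc12a1 and how far proximal genes were mixed in.

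Slc12a1 lies on chromosome 2 from 125152505 to 125230002 on the plus strand of GRCm38 (mm10) in GENCODE M21. It had 276 counts in the library labelled 0 h, and 1, 1 and 3 counts at 6, 12 and 24 h. No barcode of a treated library held 2. The 55 Slc12a1-rich barcodes held 259 of the 276 counts, with a median of 4. There were 16 barcodes with 2 counts, 11 with 3, 8 with 4, 7 with 5, and 12 with 6 to 9. A single barcode held 42. Just inside the limit, the 16 barcodes with 2 counts had a median depth of 463.5 counts. Just outside it, the 17 with 1 count had 520. Gm14002, which overlaps Slc12a1 on the other strand, had no count in the Slc12a1-rich barcodes or in those without Slc12a1.

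**Figure D1:**
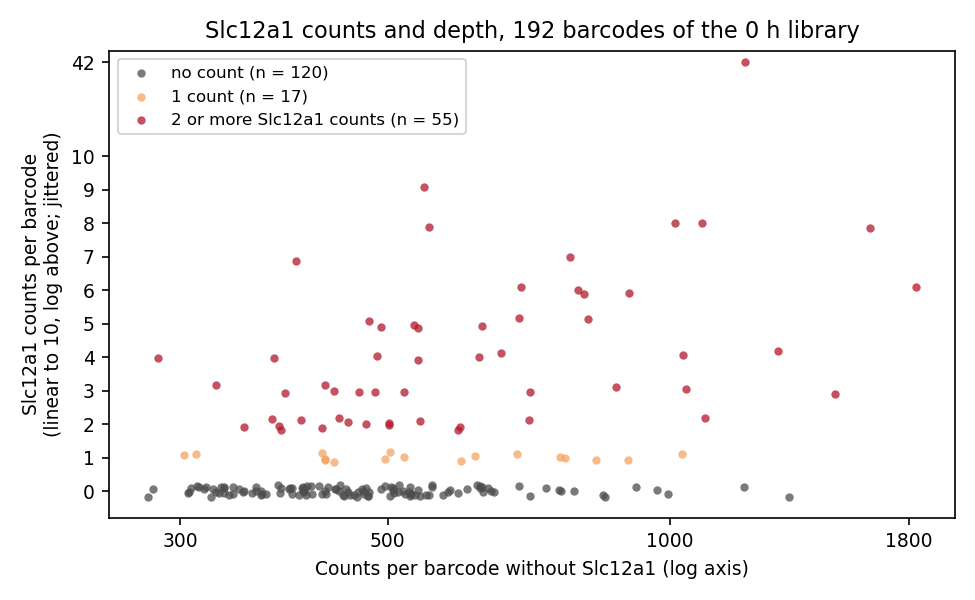
Slc12a1 counts (vertical axis, linear to 10 and logarithmic above, points jittered) against all other counts (horizontal log axis) for each of the 192 barcodes of the library labelled 0 h. The 55 red points are the Slc12a1-rich barcodes, the 120 dark points at 0 are the comparison side, and 1 barcode stands apart at 42.

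Slc12a1-rich barcodes were deeper. Without Slc12a1 they had a median of 541 counts (284 to 1834) and 294 genes, against 454.5 counts (277 to 1342) and 257 genes in the barcodes without Slc12a1. A fixed limit of 2 counts is reached more easily in a deeper barcode, so levels below are CPM of the summed counts, 37158 on the Slc12a1-rich side and 59330 on the other. Ranges in parentheses after CPM values and ratios are exact 95% intervals that cover counting error only. The sources used here do not say whether molecular identifiers were collapsed. The nuclear RNA Malat1 took 33.4% (32.9% to 33.9%) of counts in Slc12a1-rich barcodes and 31.4% (31.1% to 31.8%) in those without Slc12a1. Mitochondrial genes took 3.58% (3.39% to 3.77%) and 3.30% (3.16% to 3.45%), and ribosomal protein genes 0.439% (0.374% to 0.511%) and 0.356% (0.309% to 0.407%). Scrublet, a doublet caller, marked 12 of the 55 Slc12a1-rich barcodes and 20 of the 120 without Slc12a1.

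Other loop genes were higher where Slc12a1 was. The loop marker list had 16 genes besides Slc12a1, of which 14 were measured and 12 had a count on either side. They summed to 87 counts in Slc12a1-rich barcodes, or 2341 CPM (1875 to 2888), and to 37 counts in barcodes without Slc12a1, or 624 CPM (439 to 860). The ratio was 3.75 (2.53 to 5.68). Among the 12 genes, 10 had a higher CPM in Slc12a1-rich barcodes and 2 a lower one, while 4337 of all 9364 genes with a count had a higher one. Without the barcode with 42 Slc12a1 counts the ratio was 3.34, and in barcodes with 500 or more counts, 34 on the rich side and 47 on the other, it was 2.94.

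By number of Slc12a1 counts, the loop list stood at 624 CPM with no count, 696 CPM (280 to 1433) with 1 count, 1458 CPM (754 to 2547) with 2 and 1811 CPM (964 to 3097) with 3. With 4 to 5 counts it was 2528 CPM (1620 to 3761) and with 6 to 9 counts 2352 CPM (1537 to 3447). The barcode with 42 reached 9975 CPM from 12 loop counts. Neighbouring steps overlapped in their intervals, other than the last. The level with 1 count was close to that with none, and its interval also overlapped that with 2.

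The secreted and surface list had 119 counts against 59, a ratio of 3.22 (2.34 to 4.48). Egf, the growth factor made by the thick ascending limb and distal convoluted tubule, had 42 counts in 22 of 55 Slc12a1-rich barcodes and 8 counts in 6 of 120 barcodes without Slc12a1. That is 1130 CPM (815 to 1528) against 135 CPM (58.2 to 266), a ratio of 8.38 (3.89 to 20.7). Egf lies on chromosome 3 from 129677565 to 129755316, on the minus strand. No single barcode held more than 5 of the 42 counts. Of the 31 barcodes with Egf in the library, 22 were Slc12a1-rich, 3 had 1 Slc12a1 count and 6 had none.

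Kng2, a kininogen gene that gives the precursor of bradykinin, had 35 counts in 22 Slc12a1-rich barcodes and 10 counts in 10 barcodes without Slc12a1. Its level was 942 CPM (656 to 1310) against 169 CPM (80.8 to 310), a ratio of 5.59 (2.71 to 12.7). The gene lies on chromosome 16 from 22985854 to 23029482 on the minus strand. Every barcode with 2 or more Kng2 counts, 8 in all, was Slc12a1-rich. Its close relative Kng1 had no count on either side, so how the counting treated reads shared by the pair leaves the Kng2 value uncertain.

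Umod, the gene of uromodulin, was sparse. It had 14 counts in 10 Slc12a1-rich barcodes and 6 counts in 5 barcodes without Slc12a1, or 377 CPM (206 to 632) against 101 CPM (37.1 to 220). The ratio was 3.73 (1.34 to 11.8). Umod lies on chromosome 7 from 119462711 to 119479282 on the minus strand. The barcode with 42 Slc12a1 counts held 4 of the 14 counts. Umod was counted in 18.2% (9.08% to 30.9%) of Slc12a1-rich barcodes, at a median depth of 541, and in 4.17% (1.37% to 9.46%) of those without Slc12a1, at 454.5. Thinned to 200 counts each, the expected shares were 8.0% and 1.88%. In most Slc12a1-rich barcodes Umod was not detectable at this depth.

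Some barcodes held several of these genes. All 3 were counted in 7 Slc12a1-rich barcodes, 2 of them in 8 and 1 in 17, which left 23 with none. In the barcodes without Slc12a1, all 3 were counted in 1, 2 in 4 and 1 in 10, and 105 had none. The groups thus overlapped, with these genes missing from many Slc12a1-rich barcodes and present in a few others. Some barcodes without Slc12a1, with 2, 2, 1 and 1 counts of Egf, also held 5, 3, 3 and 1 of Slc12a3. The others with Egf on that side held 1 count of it each and no Slc12a3.

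**Figure D2:**
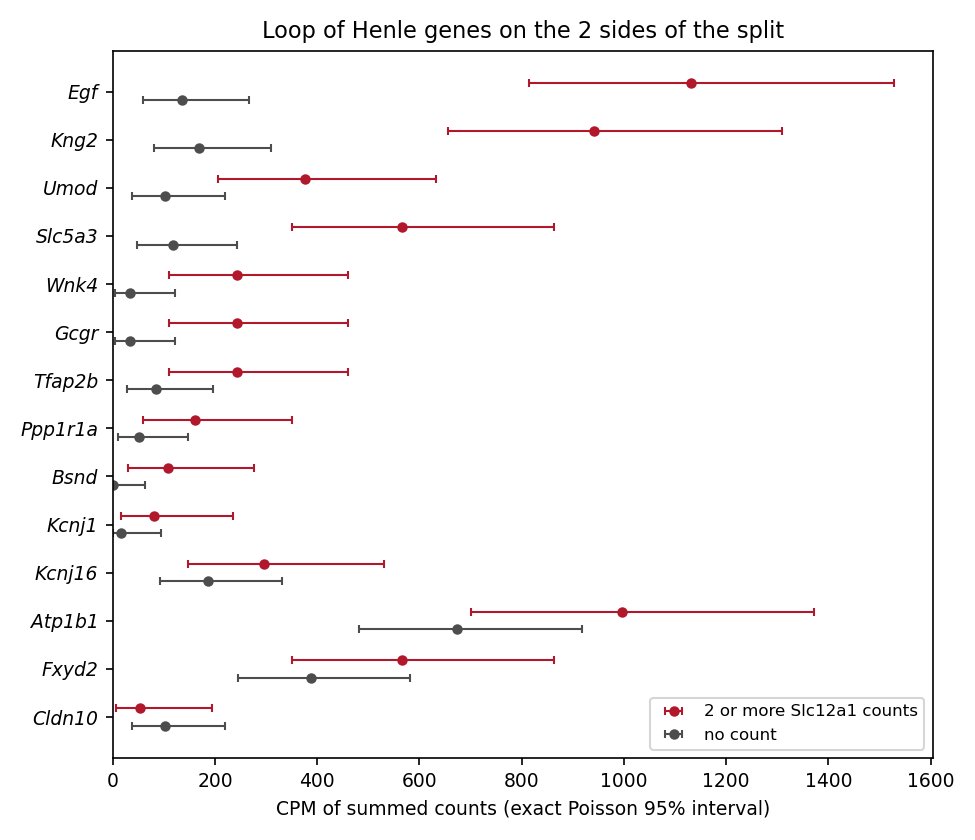
CPM of summed counts (horizontal axis) for 14 loop genes in the 55 Slc12a1-rich barcodes (red) and the 120 barcodes without Slc12a1 (dark); bars are exact Poisson 95% intervals. Egf, Kng2 and Slc5a3 stand clear of the other side, at 1130 against 135, 942 against 169 and 565 against 118 CPM, while Atp1b1, Fxyd2 and Cldn10 overlap.

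Transporters of the loop gave a mixed picture. Slc5a3, a sodium-coupled importer of the osmolyte myo-inositol, had 21 counts in 12 Slc12a1-rich barcodes and 7 in 7 barcodes without Slc12a1. Its level was 565 CPM (350 to 864) against 118 CPM (47.4 to 243), a ratio of 4.79 (1.96 to 13.3), and 6 of the 21 counts were in the barcode with 42 Slc12a1 counts. Slc5a3 lies on chromosome 16 from 92058322 to 92087473 and overlaps Mrps6 on the same strand, so reads of the pair may not be told apart; Mrps6 had 3 counts and 1. Bsnd, the gene of barttin, had 4 counts and 0, where a count of 0 allows up to 50.6 CPM, and the potassium channel Kcnj1 had 3 and 1. The sodium pump was shared by both sides. Its subunit Atp1b1 stood at 996 CPM (701 to 1373) against 674 CPM (482 to 918), and the regulator Fxyd2 at 565 CPM (350 to 864) against 388 CPM (246 to 582). The 16 transport genes summed to a ratio of 1.36 (1.07 to 1.72).

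Tight junction genes, which give the loop its selective leak for calcium and magnesium, were too sparse to read. Of 9 genes 6 were measured, with 8 counts against 14 and a ratio of 0.91 (0.33 to 2.33). Cldn10, a sodium-selective claudin, had 2 counts in Slc12a1-rich barcodes and 6 in the others. Cldn19, of the magnesium pathway, had none in either.

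Regulators of salt transport were sparse, and neither of the 2 with enough counts to be compared passed 2-fold. Wnk4, a kinase that controls Slc12a1 and Slc12a3 through Stk39 and Oxsr1, had 9 counts in 8 Slc12a1-rich barcodes and 2 counts in 2 barcodes without Slc12a1. The 17 barcodes with 1 Slc12a1 count held 5, at 497 CPM (161 to 1160), above the 242 CPM (111 to 460) of the Slc12a1-rich barcodes with intervals that overlap. Gcgr, the glucagon receptor, also had 9 counts against 2, in 7 and 2 barcodes, with 3 of the 9 in the barcode with 42 Slc12a1 counts. The ratio of each was 7.19 (1.49 to 68.3), from few counts. Stk39 had 4 counts and 1. Wnk1, expressed along the whole nephron, had 27 and 46, a ratio of 0.94 (0.56 to 1.54). The calcium-sensing receptor Casr, which restrains salt uptake in this segment, had no count on either side, where 0 counts allow up to 80.7 CPM in the Slc12a1-rich barcodes. The list of regulators had a ratio of 1.35 (0.97 to 1.87).

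Loop transcription factors had 47 counts against 49, a ratio of 1.53 (1.00 to 2.33). Tfap2b, a factor of the distal nephron, had 9 counts in 7 barcodes against 5 in 5, at 242 CPM (111 to 460) and 84.3 CPM (27.4 to 197). Tfcp2l1, of the distal nephron, had 11 counts and 12, and Ppargc1a, a coactivator of mitochondrial genes, had 10 and 15. Esrrg and Esrrb, receptors of the oxidative distal segments, had no count on either side.

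Proximal genes were present in nearly every Slc12a1-rich barcode. The 18 proximal tubule markers summed to 585 counts there, or 15744 CPM (14494 to 17073), against 1191 counts or 20074 CPM (18950 to 21247) in barcodes without Slc12a1. The ratio was 0.78 (0.71 to 0.87), so proximal markers stood at about their level in the rest of the library, a little lower. With DESeq2 size factors in place of totals it was 0.69. Among the 18 markers 3 had a higher CPM in Slc12a1-rich barcodes and 15 a lower one. Of all 9364 genes with a count, 4337 had a higher one and 5027 a lower one. Proximal markers outnumbered loop markers without Slc12a1 in 51 of the 55 barcodes, equalled them in 1 and fell short in 3. In the barcodes without Slc12a1 they did so in 117 of 120 and equalled them in 3, and in those with 1 count in 17 of 17. The proximal list is made of abundant genes and the loop list of sparse ones, so this tally starts in favour of the proximal side. With the Slc12a1 counts added to the loop side, which the choice of barcodes favours, proximal markers still outnumbered them in 35, equalled them in 6 and fell short in 14. Since proximal markers were counted in all but 1 of the 55 barcodes, these are called Slc12a1-rich here and not loop-like.

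Per barcode, proximal markers made up a median of 1.52% of counts (0% to 2.98%) in Slc12a1-rich barcodes. In barcodes without Slc12a1 the median was 2.01% (0.131% to 4.72%), and in those with 1 count 2.05% (0.935% to 4.04%). Only 1 Slc12a1-rich barcode held no proximal marker count, and 18 of the 55 lay above the median of the barcodes without Slc12a1. The ranges overlapped over most of their width. By number of Slc12a1 counts, the median share was 1.45% with 2, 1.80% with 3, 1.22% with 4 to 5 and 1.41% with 6 to 9, so it showed no steady fall with more Slc12a1.

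**Figure D3:**
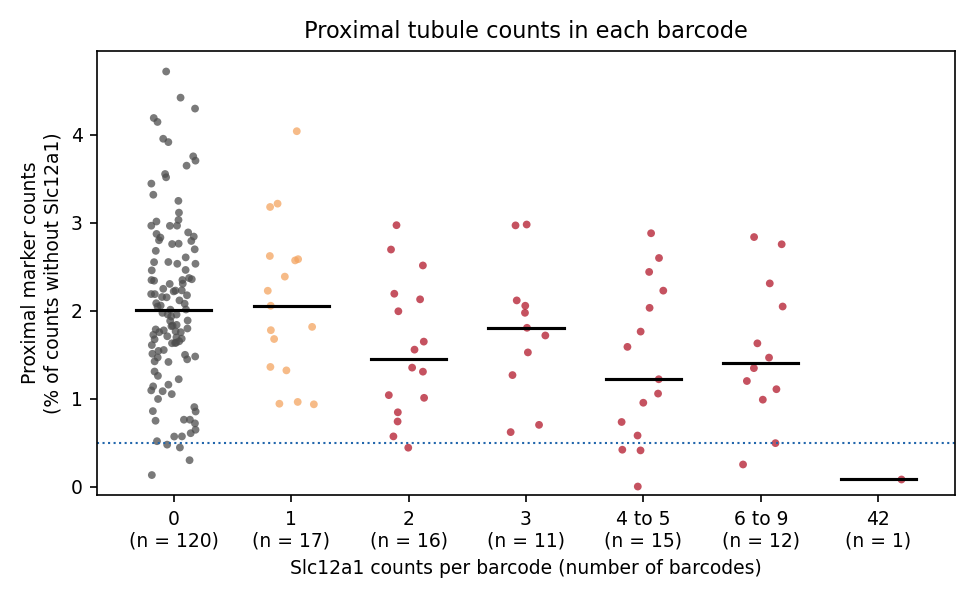
Share of counts from the 18 proximal markers (vertical axis, percent of counts without Slc12a1) in each barcode, by number of Slc12a1 counts (horizontal axis); black lines are medians and the dotted line marks 0.5%. Medians run from 2.01% with no Slc12a1 count to 1.41% with 6 to 9 counts, and the barcode with 42 lies at 0.0831%.

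Single proximal genes gave the same picture. Slc34a1, which reclaims phosphate, had 138 counts in 44 of 55 Slc12a1-rich barcodes and 271 in 84 of 120 without Slc12a1, at 3714 CPM (3120 to 4388) and 4568 CPM (4040 to 5145). Thinned to 200 counts, it was expected in 46.8% and 52.1% of barcodes. Acsm2, an acyl-CoA synthetase, stood at 4414 CPM (3764 to 5143) and 5579 CPM (4994 to 6214). Kap, the androgen-regulated kidney protein, stood at 1803 CPM (1397 to 2290) and 1955 CPM (1616 to 2345). The make-up of the proximal counts was close for these 3 genes: Acsm2 took 28.0% (24.4% to 31.9%) of them in Slc12a1-rich barcodes and 27.8% (25.3% to 30.4%) in the others, Slc34a1 took 23.6% and 22.8%, and Kap 11.5% and 9.74%.

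Other proximal genes stood apart. Miox, which breaks down myo-inositol, had 3 counts against 29, or 0.513% (0.106% to 1.49%) of proximal counts against 2.43% (1.64% to 3.48%). Its ratio of CPM was 0.17 (0.03 to 0.53). Slc7a13, an amino acid transporter of the late proximal tubule, had 31 counts against 101, a ratio of 0.49 (0.32 to 0.74), and Slc27a2, a fatty acid transporter, had 0.61 (0.40 to 0.91). Slc5a2, the glucose transporter SGLT2 of the early proximal tubule, had 23 counts against 25, a ratio of 1.47 (0.80 to 2.70). Slc5a12, a lactate transporter, had 1.38 (0.77 to 2.43), and Slc6a19, an amino acid transporter, 1.30 (0.71 to 2.37). The intervals of those last 3 include 1.

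By role, proximal transport genes had a ratio of 0.75 (0.68 to 0.84) over 43 genes and proximal metabolism 0.74 (0.66 to 0.82) over 30 measured genes. Uptake genes such as Lrp2 and Cubn, the receptors for filtered protein, had 0.89 (0.72 to 1.10). Lrp2 itself stood at 1050 CPM (746 to 1435) and 1112 CPM (860 to 1415). Proximal transcription factors had 0.78 (0.61 to 1.00). Maf had 55 counts against 74, a ratio of 1.19 (0.82 to 1.71), and Mlxipl, which responds to sugar, had 27 against 72, a ratio of 0.60 (0.37 to 0.94).

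A few Slc12a1-rich barcodes were low in proximal markers. In 7 of 55, these made up less than 0.5% of counts, a limit set after the values were seen; 4 of the 120 barcodes without Slc12a1 lay under it too. Their cell barcodes are printed because they are the members in which Slc12a1 is least mixed with proximal genes. The letters are the bead barcodes as deposited.
Barcode A: gtcgatgtaatc
Barcode B: aaggcccaggtg
Barcode C: ttgtggcgaacg
Barcode D: ccttatacacag
Barcode E: gtccgtggttgc
Barcode F: tagcgcgcgtct
Barcode G: ttatagaccgtc

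Barcode A held 42 Slc12a1 counts among 1203 others. It had 5 counts of Egf, 5 of Kng2, 6 of Slc5a3, 4 of Umod, 3 of Gcgr and 1 each of Kcnj1 and Bsnd, and no Slc34a1, Acsm2 or Kap. Its single proximal marker count was of Slc5a2. Barcode B, with 399 other counts, held 7 of Slc12a1, 3 of Egf, 2 of Kng2, 1 of Umod and 1 of Slc34a1. These 2 barcodes have the clearest loop content in the library.

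The other 5 barcodes were thinner in loop genes. Barcode C held 6 Slc12a1 counts, 3 of Kng2 and 2 of Wnk4, and no Egf or Umod. Barcode D held 5 Slc12a1 counts and no count of any other loop marker. Barcode E held 4 and 1 of Umod. Barcode F held 4, with 2 loop marker counts, no proximal marker count and 330 of its 626 other counts from Malat1. Barcode G held 2, with 1 each of Egf, Kng2 and Slc5a3. Proximal markers had 4 counts in barcode C and 2 each in D, E and G. In each of these they outnumbered the loop markers without Slc12a1.

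In those 7 barcodes together the loop list without Slc12a1 stood at 4712 CPM (2917 to 7202), a ratio of 7.56 (4.20 to 13.2) to the barcodes without Slc12a1. Barcode A held 12 of their 21 loop counts. Without it the level was 2766 CPM (1265 to 5250) and the ratio 4.44 (1.88 to 9.36). The 5 barcodes left without A and B held 4 loop counts, at 1401 CPM (382 to 3587), a ratio of 2.25 (0.58 to 6.25). In the remaining 48 it stood at 2018 CPM (1561 to 2568), a ratio of 3.24 (2.13 to 4.98). Barcodes with proximal markers thus also had a higher loop level than those without Slc12a1. The limit set the proximal level of both the 7 and the 48, so neither is a result.

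Genes of neighbouring segments were counted on both sides. Slc12a3, of the distal convoluted tubule, had 15 counts in 7 Slc12a1-rich barcodes and 51 in 15 barcodes without Slc12a1, at 404 CPM (226 to 666) and 860 CPM (640 to 1130), a ratio of 0.47 (0.25 to 0.85). Of the 51 counts, 1 barcode held 11 and another 8, and the ratio of Slc12a3 without them was not computed. Of the 17 barcodes with 2 or more Slc12a3 counts, 4 were Slc12a1-rich, 2 had 1 Slc12a1 count and 11 had none. In no Slc12a1-rich barcode did Slc12a3 outnumber Slc12a1. That was largely set in advance, since these barcodes were chosen for Slc12a1 and 48 of the 55 held no Slc12a3. The Slc12a1-rich barcode with the most Slc12a3, with 1635 other counts, held 8 of Slc12a1, 5 of Slc12a3 and 9 of Slc34a1. The distal convoluted list summed to a ratio of 0.72 (0.52 to 0.995). Wnk1, expressed along the whole nephron, is in that list. It held 27 of the 57 counts in Slc12a1-rich barcodes and 46 of the 126 in barcodes without Slc12a1. Single barcodes also weighed on the ratio. One Slc12a1-rich barcode held 17 of its side's 57 counts, and without it the ratio was 0.53 (0.36 to 0.76). On the other side 1 barcode held 25 of 126, and without it the ratio was 0.89 (0.63 to 1.24).

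Collecting duct genes had few counts. The principal cell list had 3 counts against 7 and the intercalated cell list 21 against 28, a ratio of 1.20 (0.65 to 2.19). Of its 5 genes with a count 2 had a higher CPM in Slc12a1-rich barcodes and 3 a lower one. The one compared at 2-fold, the proton pump subunit Atp6v0a4, had 8 counts against 17 and did not pass. Thin limb genes had 9 counts against 10. Podocyte genes had 7 counts against 32, at 188 CPM (75.7 to 388) and 539 CPM (369 to 761), a ratio of 0.35 (0.13 to 0.81). Of the 9 podocyte genes with a count, 1 had a higher CPM in Slc12a1-rich barcodes. Beside these tallies, 4337 of all 9364 genes with a count had a higher CPM there and 5027 a lower one. Endothelial genes had 13 counts against 25, macrophage genes 3 against 8 and mesenchymal genes 3 against 2. The measured lymphocyte and erythroid markers had none. Their part in the values above was not tested.

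**Figure D4:**
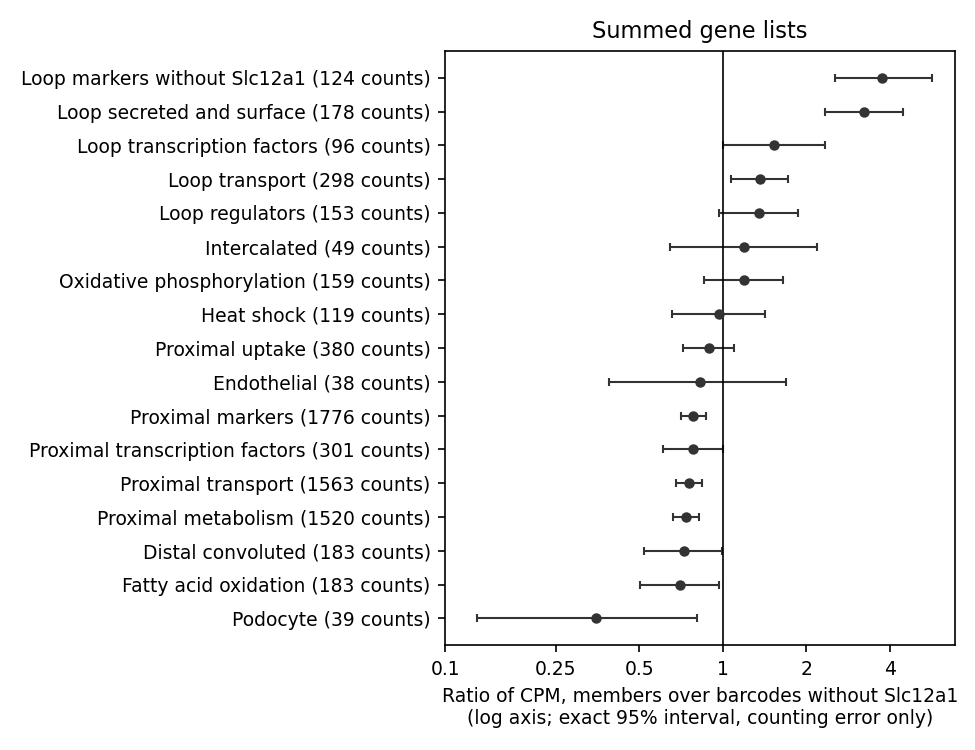
Ratio of CPM between Slc12a1-rich barcodes and barcodes without Slc12a1 (horizontal log axis) for 17 of the 28 gene lists, with exact 95% intervals and the counts of both sides together in the labels; lists share some genes. Loop markers without Slc12a1 lie at 3.75 and proximal markers at 0.78.

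Across all genes the sides were much alike. Of 563 genes with 20 or more counts on both sides together, 17 were at least 2-fold higher in Slc12a1-rich barcodes, which is 3.02% of those compared, and 51 were at least 2-fold lower, which is 9.06%. The remaining 495 lay between. The median log2 ratio, of CPM plus 50, was -0.11. With DESeq2 size factors it was -0.26, with 12 genes higher and 73 lower, so higher genes made up 14.1% of those past 2-fold in place of 25%. In barcodes with 500 or more counts 15 genes were higher and 16 lower, of 283 compared.

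Egf, Kng2, Slc5a3 and Umod, all from the loop lists, were among the highest genes by log2 ratio. The lists were chosen with earlier results of these data known, so this place is a description and not independent support. Of the loop markers only Umod and Egf had enough counts to be compared, and both passed 2-fold, beside 3.02% of all genes compared. Most counts of both came from the Slc12a1-rich side, with 14 against 6 for Umod and 42 against 8 for Egf. The same held for Kng2, with 35 against 10, and Slc5a3, with 21 against 7. Sparse genes qualified more easily when high on that side, so the tallies for loop lists partly favour higher genes. Of the secreted and surface list, 3 of 4 compared genes passed (Umod, Egf and Kng2), and of the transport list 1 of 5 (Slc5a3). Of the regulators and of the transcription factors, 0 of 2 each passed. Of the 15 proximal markers compared, none was higher by 2-fold and 2 were lower, Miox and Slc7a13, against the 9.06% of all genes. Most counts of these 2 came from barcodes without Slc12a1, with 3 against 29 for Miox and 31 against 101 for Slc7a13. Sparse genes high on that side qualified more easily too, so this tally partly favours lower genes. The median log2 ratio of the 15 proximal markers was -0.33, beside -0.11 for all genes.

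The 12 highest genes by log2 ratio were Egf, Kng2, Slc5a3, Tra2a, Umod, Zmynd11, Knop1, Dst, Tmem245, Itch, Dcaf17 and Cep110. Tra2a, a splicing regulator, had 17 counts against 7, a ratio of 3.88 (1.53 to 11.1). Zmynd11, a reader of histone methylation in transcribed genes, had 27 counts in 20 barcodes against 15 in 14, a ratio of 2.87 (1.48 to 5.81). Dst, a linker of the cytoskeleton, had 64 counts against 48, a ratio of 2.13 (1.44 to 3.16), with up to 9 in a barcode. Intervals of Tmem245, Dcaf17 and Cep110 included 1. Knop1 had 2.99 (1.19 to 8.15) and the ubiquitin ligase Itch 2.26 (1.02 to 5.19). These intervals are not adjusted for the number of genes compared.

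**Figure D5:**
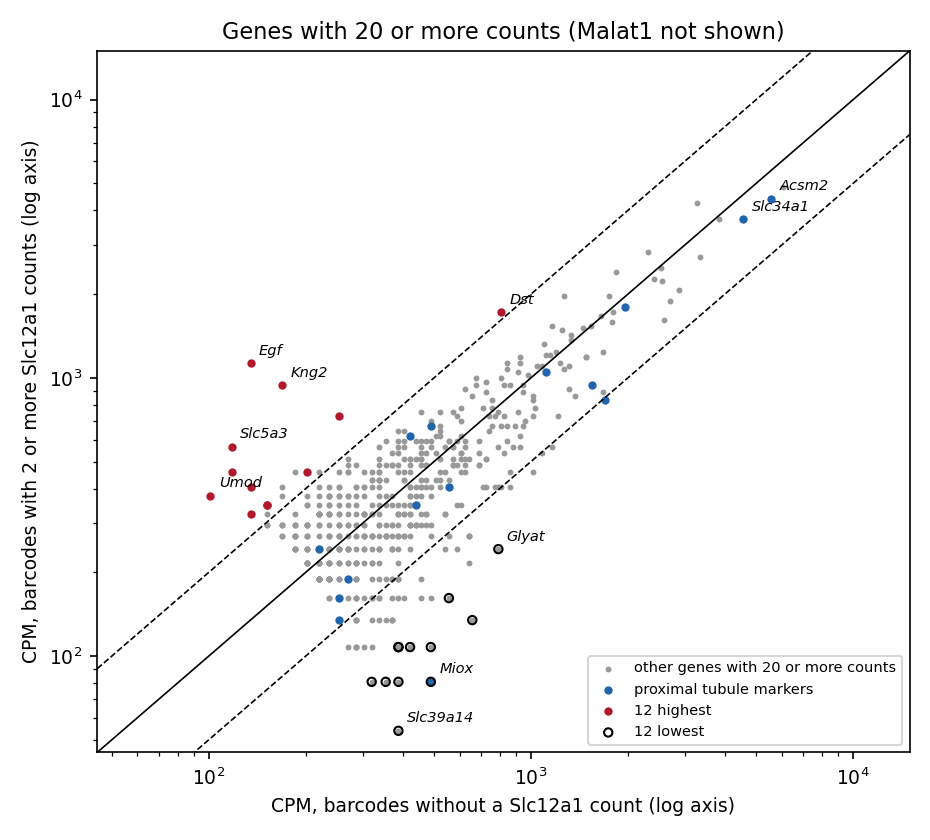
CPM in Slc12a1-rich barcodes (vertical log axis) against CPM in barcodes without Slc12a1 (horizontal log axis) for the genes with 20 or more counts; the solid line is equality and dashed lines are 2-fold. Egf, Kng2, Slc5a3 and Umod lie above the upper line, and most proximal markers lie between the diagonal and the lower line.

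Among the 12 lowest genes were Slc39a14, Miox, Zmym5, Psma4, Ergic2, Tardbp, Rnf24, Glyat, Bptf, Brd2 and Zmynd8. Miox and Glyat belong to proximal metabolism. Glyat, which joins glycine to acyl-CoA, had 9 counts against 47, a ratio of 0.31 (0.13 to 0.63). Slc39a14, a zinc and iron importer, had 2 counts against 23, a ratio of 0.14 (0.02 to 0.56). Others act in every cell. The proteasome subunit Psma4 had 0.22 (0.06 to 0.63), and Tardbp, an RNA-binding protein, 0.23 (0.04 to 0.76). Of 17 metabolism genes compared, 4 were at least 2-fold lower (Acsm3, Miox, Keg1 and Glyat), or 23.5%, and 0 higher. Of all genes compared, 9.06% were lower and 3.02% higher. Most counts of the 4 came from barcodes without Slc12a1, with 10 against 33 for Acsm3 and 3 against 29 for Miox. Keg1 had 10 against 38 and Glyat 9 against 47. Genes high on that side, which had the larger total, reached the count needed for comparison more easily. The tally of metabolism genes thus partly favours lower genes.

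Among energy genes, only those of fatty acid oxidation stood apart beyond counting error. The thick ascending limb is rich in mitochondria, and 24 nuclear genes of oxidative phosphorylation had 68 counts against 91, a ratio of 1.19 (0.86 to 1.65). Glycolysis genes had 17 against 19, a ratio of 1.43 (0.70 to 2.90). Fatty acid oxidation genes had 56 against 127, a ratio of 0.70 (0.50 to 0.97), with Acadm, of medium-chain oxidation, at 11 against 26. Heat shock genes had 0.97 (0.65 to 1.43). Tubule injury genes had 7 counts against 10 and immediate early genes 5 against 7, with no count of Havcr1 or Lcn2 on either side.

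Loop markers were close to absent from the treated libraries. The list without Slc12a1 stood at 1226 CPM (1025 to 1455) in the whole library labelled 0 h. The treated libraries had 14.1 CPM (7.05 to 25.3), 4.04 CPM (2.56 to 6.07) and 5.35 CPM (3.68 to 7.52), in order of time. Umod had 21 counts at 0 h and 0, 0 and 2 counts after that, and Egf had 54, then 0, 3 and 3. Slc5a3 stood at 290 CPM at 0 h and at 16.7, 20.9 and 20.3 CPM in the treated libraries, from 13, 119 and 125 counts there, so it was lower but detected in all of them.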

How the data were processed

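The authors deposited whole-number counts per gene and barcode for 17391 genes, not normalized; the unit was read from the values. The submitters' processing notes name STAR 2.5.3a and the build mm10. The counter, annotation, strand setting and barcode filter were not given in the sources used. All barcodes of the library labelled 0 h were kept. Each had 200 or more genes. Counts were summed over barcodes with 2 or more Slc12a1 counts and over those without one, and scaled to CPM of all genes but Slc12a1. CPM intervals are exact Poisson, ratios exact conditional binomial and shares exact binomial (Clopper-Pearson), all at 95%. A count of 0 is read as up to 3 counts. Genes with 20 or more counts over both sides were compared at 2-fold; log2 ratios use a pseudocount of 50 CPM. Shares after thinning are hypergeometric expectations. Scrublet calls were kept.

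Named genes are loop list members, the 12 highest and 12 lowest by log2 ratio (without mitochondrial, ribosomal protein, predicted and unnamed genes), up to 4 members with the most counts of each other list, and Slc12a1. Other genes were named after their values were seen, and a few genes that the rule names are not reported here. The members, the 28 lists and the rules were chosen with earlier results of these data known. Alternatives changed the member limit, depth, weighting, totals, doublets, single barcodes, pseudocount, floor, fold, scaling and thinning; leaving out the barcode with the most Slc12a1 counts, splitting at 0.5% proximal counts, with and without single barcodes, and leaving out single barcodes rich in distal convoluted counts were chosen after seeing the data. Positions are from GENCODE M21, which matched 27 of 28 genes looked up. The comparison was tested on simulated data. Scaling factors came from edgeR 4.0.16 (TMM) and DESeq2 1.42.0 (size factors) in R 4.3.3. Scrublet ran in scanpy 1.11.5 with scikit-image 0.26.0. Sums and intervals were computed with scipy 1.17.1, pandas 2.3.3 and numpy 2.4.6 in Python 3.11.15, and plots with matplotlib 3.10.9.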

Additional observations from a re-analysis of the deposited data

How the results depend on the processing

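Depth limits these results: 563 of 9364 genes with a count could be compared. The counts of genes past 2-fold, 17 higher and 51 lower, depended on the floor and the fold, by construction. They were 118 and 190 with a floor of 10 counts, 4 and 15 with 40, and 2291 and 3330 with 1. At 1.5-fold they were 55 and 110, and at 3-fold 5 and 13. With 500 or more counts per barcode the lower genes numbered 16, where 283 genes were compared. The loop list ratio of 3.75 lay between 2.94 and 4.44 under the alternatives other than the split at 0.5% proximal counts, where it was 7.56 under the limit, and 4.44 there without the barcode with 42 Slc12a1 counts. The proximal ratio of 0.78 was 0.134 under that limit and 0.873 at or above it, both by construction, and 0.688 with DESeq2 size factors, where the cause was not tested. Umod was counted in 18.2% of Slc12a1-rich barcodes without thinning, against 8.0% thinned. Of the 24 highest and lowest genes, 23 kept their direction under all 14 alternatives run for them; Dcaf17 turned to -2.01 in the 7 barcodes under 0.5% proximal counts, where it had no count. No paired analysis was possible because all barcodes come from 1 library.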

Other observations

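Both genes of myo-inositol handling among the lists stood on opposite sides: Slc5a3, the importer, had a ratio of 4.79 (1.96 to 13.3) and Miox, the oxygenase, 0.17 (0.03 to 0.53). Both rest on few counts, and they were paired after their values were seen. Nuclear RNAs also differed among themselves. Neat1, a paraspeckle RNA, stood at 4252 CPM (3615 to 4969) in Slc12a1-rich barcodes and 3287 CPM (2842 to 3782) in those without Slc12a1, and Snhg11 at 888 CPM (611 to 1247) and 1669 CPM (1356 to 2032), a ratio of 0.53 (0.35 to 0.80).

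The 4 barcodes without Slc12a1 that held under 0.5% proximal counts had other contents. Of these, 1 held 6 podocyte marker counts, 1 held 4 distal convoluted counts, of which 2 were of Slc12a3, and 1 held 2 endothelial counts. The last held 2 loop marker counts. Among all barcodes without Slc12a1, the 2 with the most Slc12a3 held 11 and 8 counts of it, 25 and 17 distal convoluted counts in all, and 6 and 3 proximal marker counts.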
